A study of Mus musculus with 3 samples.

Results

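OM-CD_b is one of a pair of clusters that the authors assigned to the outer medullary collecting duct (OM-CD) in a single-cell atlas of the mouse renal medulla. Its members were all cells carrying that cluster name, 5291 of 181257 cells. They were 2.92% of the atlas and 10.8% of its 49021 cells of collecting duct (CD) type, a type that included a urothelial cluster. Male BALB/c mice were either healthy controls, with no operation given in their labels, or were studied 28 or 84 days after reversible unilateral ureteric obstruction (R-UUO). In R-UUO, a vascular clamp was placed on the left ureter and later removed, and the opposite kidney was then taken out. RNA of fixed cells was read with gene probes in droplets, and 3 to 4 papillae were combined into each pool, giving 4 control pools, 4 pools at day 28 and 2 at day 84. The pool was the replicate throughout. Because no operated mouse without obstruction was included and each condition was a library of its own, obstruction, nephrectomy and droplet run cannot be told apart.

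The collecting duct is the last tubule of the kidney and sets the final concentration of the urine. Its principal cells take up water through Aqp2, the vasopressin-regulated channel of the luminal membrane, and pass it on through Aqp3, a channel of the opposite membrane. Intercalated cells (IC), which lie among them, secrete acid or base. The duct runs from the cortex through the outer medulla (OM) to the inner medulla (IM) and opens at the papilla, whose surface is covered by urothelium. Levels of Aqp2 and Aqp3 were not analysed here, so the name OM-CD_b rests on the authors' annotation. The labels call the tissue papilla, while the study describes dissected medullas with a variable amount of outer medulla.

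The data for each cell were a UMI count (the number of distinct RNA molecules read), the number of detected genes and the percent of mitochondrial UMIs. Pools held 13013 to 24338 cells, among them 232 to 939 OM-CD_b cells. Median UMIs per cell over the cells outside OM-CD_b were 1132 to 1541 in control pools, 1529 to 3249 at day 28, and 878 and 737 at day 84, so depth differed between conditions. Proximal tubule cells, which come from the outer medulla and cortex, made up 0.113% to 3.02% of the control pools, 2.95% to 22.8% at day 28, and 3.60% and 7.64% at day 84. Between 21.6% and 60.2% of the OM-CD_b cells of a pool carried a droplet barcode also present in another pool of the same condition, against 22.7% to 61.1% of the other cells. Of the 2831 cells of other pools that shared such a barcode, counted from each pool in turn, 72 were OM-CD_b cells themselves. Per pool these were 0.901% to 4.46% of the sharing cells, while OM-CD_b was 1.68% to 4.75% of all cells in the condition's other pools. A barcode present in a pool of another condition was carried by 9.48% to 13.0% of OM-CD_b cells and 10.6% to 12.9% of the other cells. A shared barcode marks a shared droplet code and not a shared cell, since the probes carry the pool's own barcode.

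Among the cells typed as CD, which included the urothelial cluster Uro, OM-CD_b made up a larger part after R-UUO than in the controls. Its mean share of CD cells was 6.56% ± 3.30 in the controls (SD, n = 4 pools). After R-UUO the mean was 17.5% ± 1.77 (n = 4) in day 28 pools and 13.5% ± 1.82 (n = 2) in day 84 pools. The sister cluster OM-CD_a held 26.2% ± 3.66, 24.2% ± 3.46 and 21.4% ± 0.908 of CD cells in the same order and did not pass the test at either time (limma adjusted p = 0.566 and 0.252).

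In the control pools 1 to 4, OM-CD_b was 4.36%, 11.5%, 4.93% and 5.49% of CD cells. In the day 28 pools it was 17.5%, 17.5%, 15.3% and 19.6%. In the day 84 pools it was 14.8% and 12.2%. No R-UUO pool overlapped a control pool, although control pool 2 stood above the other controls and just under the lower day 84 pool. The Wilson 95% interval of that control pool was 10.7% to 12.2% and that of the lower day 84 pool 11.5% to 13.0%, both of which cover counting error only. The odds of a CD cell being OM-CD_b were 3.25-fold higher at day 28 (log2 odds change 1.70, SE 0.333, limma adjusted p = 6.39e-04; exact permutation p = 0.0286, the smallest possible for 4 against 4). At day 84 the change was 2.39-fold (log2 1.26, SE 0.407, limma adjusted p = 0.0204; exact p = 0.133, the smallest possible for 4 against 2). The day 84 call was lost without control pool 3 (1.15, limma adjusted p = 0.0513) and without day 84 pool 1 (1.10, adjusted p = 0.153). Of the 6 CD clusters, 83.3% passed at day 28 and 50% at day 84, so most of the lineage passed as well at day 28. Day 84 and day 28 differed by -0.44 on the log2 odds scale (95% interval -1.34 to 0.45), and 0% of CD clusters passed in that comparison, with 0 also at an unadjusted p under 0.05.

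**Figure D1:**
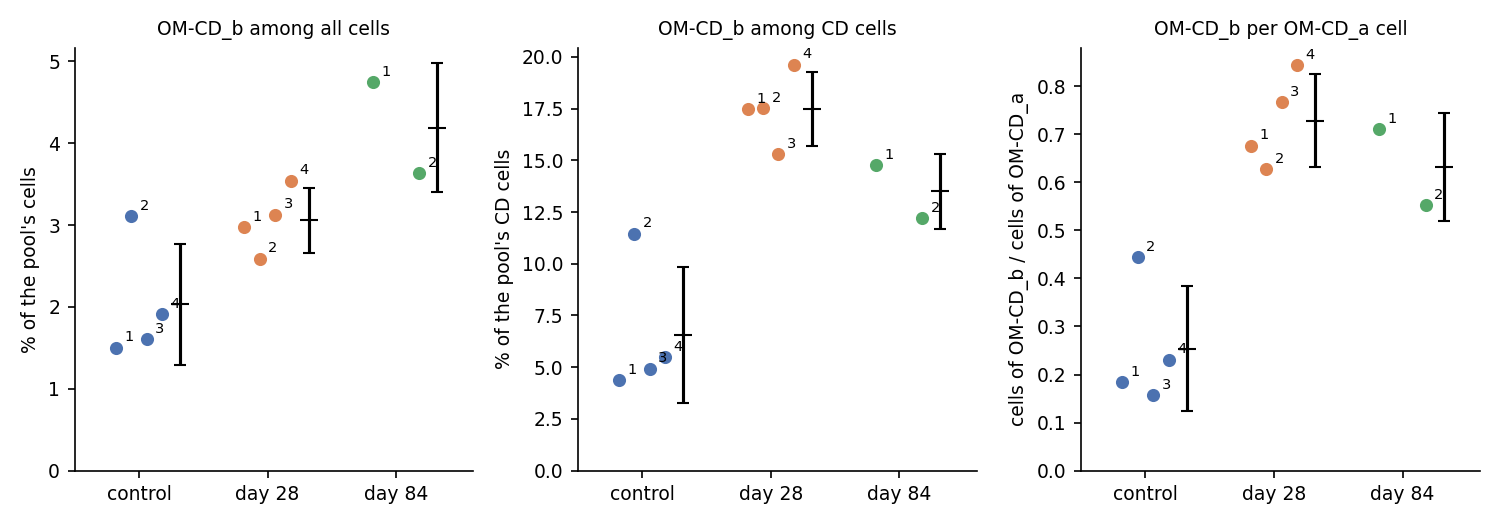
Share of OM-CD_b per pool among all cells (left, %), among CD cells (middle, %) and per OM-CD_a cell (right, ratio of cell numbers). Points are pools with their numbers, and the bars beside them are the mean ± SD over 4, 4 and 2 pools; control pool 2 lies above the other controls in all 3 panels, and only in the left panel do control and day 28 pools overlap.

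Among all cells, OM-CD_b also had a higher mean share after R-UUO, but control and day 28 pools overlapped. Its average was 2.03% ± 0.738 (SD, n = 4) over control pools, 3.06% ± 0.395 (n = 4) over day 28 pools and 4.19% ± 0.791 (n = 2) over day 84 pools. The control pools held 1.50%, 3.11%, 1.61% and 1.91%. The day 28 pools held 2.97%, 2.59%, 3.13% and 3.54%, and the day 84 pools 4.75% and 3.63%. Control pool 2 was above both of the lower day 28 pools, and both day 84 pools were above every other pool. The log2 odds rose by 0.66 at day 28 (SE 0.266, limma adjusted p = 0.0408; exact p = 0.0857) and by 1.12 at day 84 (SE 0.325, limma adjusted p = 0.0223; exact p = 0.133). The day 28 call held in 1 of the 10 fits that left out a pool, the one without control pool 2 (0.89, limma adjusted p = 0.00449). The day 84 call was lost without day 84 pool 1 (0.92). Calls were common here, with 88% of the 25 clusters past the threshold at day 28 and 48% at day 84. Between day 84 and day 28 the log2 odds of OM-CD_b differed by 0.47 (SE 0.325, limma adjusted p = 0.358), where 8% of clusters passed.

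Within the outer medullary duct, the balance between OM-CD_b and OM-CD_a differed between conditions. For each OM-CD_a cell, the control pools held 0.254 ± 0.130 OM-CD_b cells (SD, n = 4), the day 28 pools 0.729 ± 0.0963 (n = 4) and the day 84 pools 0.632 ± 0.112 (n = 2). Both clusters together were 28.1% to 37.2% of CD cells in control pools and 35.2% to 45.5% at day 28. They were 35.6% and 34.3% at day 84, so these ranges overlapped. Among all cells they were 9.68% to 11.9% in control pools, 6.72% to 7.74% at day 28, and 11.4% and 10.2% at day 84. There, the log2 odds of OM-CD_a changed by -1.06 at day 28 (limma adjusted p = 8.05e-04), against 0.66 for OM-CD_b, with 88% of the 25 clusters past the threshold. At day 84 OM-CD_a changed by -0.36 (limma adjusted p = 0.167).

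The ratio was 0.184, 0.444, 0.157 and 0.231 in the control pools. It was 0.677, 0.627, 0.767 and 0.844 in the day 28 pools, and 0.711 and 0.553 in the day 84 pools. All R-UUO pools were above all control pools. The ratio rose 3.10-fold at day 28 (log2 change 1.63, SE 0.412, limma adjusted p = 0.00507; exact p = 0.0286) and 2.69-fold at day 84 (log2 1.43, SE 0.504, limma adjusted p = 0.0413; exact p = 0.133). The day 28 call held in all 10 fits that left out a pool. The day 84 call held in 2 of 10, those without control pool 2 and without day 28 pool 4, and the change without day 84 pool 1 was 1.24. Of all 300 pairs of clusters, 72.3% passed at day 28 and 46.7% at day 84. The ratio at day 84 differed from that at day 28 by -0.21 (95% interval -1.33 to 0.92).

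OM-CD_b cells carried far more UMIs than OM-CD_a cells in every pool. The median OM-CD_b cell had 2361, 5006, 3140.5 and 3145 UMIs in the control pools. It had 7210, 5036, 4728 and 5394.5 at day 28, and 2682 and 1794 in the later pools. By contrast, the median OM-CD_a cell had 989 to 1293, 1739.5 to 2647, and 798 and 654.5. The OM-CD_b median was thus 2.19 to 3.87 times that of OM-CD_a and 2.09 to 3.53 times that of all other cells of the same pool. When 1 cell of each cluster was drawn from the same pool, the OM-CD_b cell had more UMIs in 87.0% to 97.8% of all such pairs. Against deepIM-CD, the deep inner medullary duct, the same value was 18.1% to 38.4% in control pools, 54.0% to 66.3% at day 28, and 52.9% and 52.7% at day 84.

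By median UMIs, OM-CD_b ranked between 1 and 6 among the 25 clusters. It supplied 9.86% to 15.1% of its own cells to the 5% of a control pool's cells with the most UMIs, 21.2% to 34.6% at day 28, and 20.4% and 19.5% at day 84, and no OM-CD_a cell of any pool was among them. Above 4000 UMIs there were 64 to 439 OM-CD_b cells in a control pool and 0 to 12 OM-CD_a cells. A day 28 pool had 233 to 361 OM-CD_b cells and 6 to 76 OM-CD_a cells there. The 76 were 13.3% of the OM-CD_a cells of day 28 pool 1. At day 84 there were 258 and 159 OM-CD_b cells and 0 OM-CD_a cells in either pool. A count of 0 allows a share of up to 0.227% and 0.193% of the OM-CD_a cells of the day 84 pools. OM-CD_b held 2.65% to 6.77% of all UMIs of a control pool, 7.19% to 13.1% at day 28, and 11.9% and 8.50% at day 84. No R-UUO pool overlapped a control pool in that share.

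**Figure D2:**
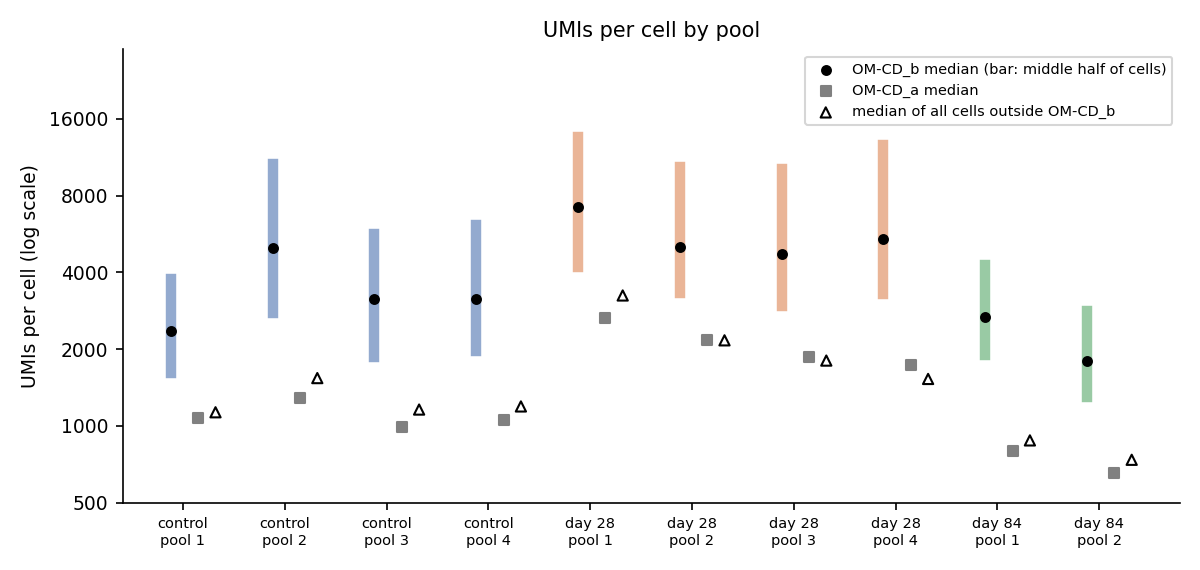
UMIs per cell in each pool, on a log axis. Filled circles are OM-CD_b medians with bars from the lower to the upper quartile of its cells, squares are OM-CD_a medians and triangles the medians of all cells outside OM-CD_b; in all 10 pools the OM-CD_b median lies above both others, and all 3 are higher at day 28 than at day 84.

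Relative to the rest of its pool, the median UMI count of OM-CD_b showed no detectable change. The part of its cells among the pool's top 5% by UMIs, given above, was larger in every R-UUO pool than in any control pool. Its median exceeded that of the other cells 2.67-fold ± 0.476 in control pools (SD, n = 4), 2.67-fold ± 0.595 in day 28 pools (n = 4) and 2.74-fold ± 0.439 in day 84 pools (n = 2). The log2 change was -0.01 at day 28 (95% interval -0.34 to 0.33, limma adjusted p = 0.974) and 0.05 at day 84 (95% interval -0.36 to 0.46, limma adjusted p = 0.851). Of the 18 clusters with at least 10 cells in every pool, 33.3% passed at day 28 and 11.1% at day 84. Between the R-UUO times the change was 0.05 (95% interval -0.35 to 0.46), and 0% of clusters passed, with 5 of 18 at an unadjusted p under 0.05 (limma).

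Because the sister clusters differed in UMIs and the conditions in depth, the ratio was also taken within fixed ranges of UMIs, chosen after the data were seen. Among cells with 1000 to 2000 UMIs there were 0.122, 0.0571, 0.0917 and 0.104 OM-CD_b cells per OM-CD_a cell in the control pools. There were 0.166, 0.139, 0.110 and 0.0846 at day 28, and 0.822 and 3.30 at day 84. Control and day 28 pools overlapped in this range, and the day 84 pools were above all others. The log2 change at day 28 was 0.44 (limma adjusted p = 0.579), not past the threshold, and that at day 84 was 4.18 (adjusted p = 8.59e-04).

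Among cells with 2000 to 4000 UMIs the order of control and day 28 pools was turned round. The ratio was 1.13 to 2.01 in the control pools, 0.188 to 0.678 at day 28, and 32.2 and 26.1 at day 84, where only 13 and 8 OM-CD_a cells fell in the range. The day 28 ratio was lower than in the controls there (log2 change -1.93, limma adjusted p = 0.0228), and the day 84 ratio was higher (4.19, adjusted p = 9.58e-04). For the share of CD cells at day 28, the log2 odds differed from control by 0.36 in the lower range (limma adjusted p = 0.554) and by -0.34 in the upper one (adjusted p = 0.50). Its day 84 change was 0.63 in the upper range (limma adjusted p = 0.309). The share of all cells at day 28 was below that of the controls in both ranges, by -0.70 (limma adjusted p = 0.137) and by -1.20 (adjusted p = 0.0501), the opposite direction to that of all depths.

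A fixed range holds a different slice of the cells where a pool was read more deeply, so ranges scaled to each pool were taken as well. Among cells with 1 to 2 times the pool's median UMI count, the ratio of OM-CD_b to OM-CD_a was 0.212, 0.460, 0.231 and 0.256 in the control pools. It was 0.667, 0.437, 0.520 and 0.298 at day 28 and 0.482 and 0.760 at day 84, and control pool 2 lay above 2 of the day 28 pools. The direction was that of all cells, with log2 changes of 0.74 at day 28 and 1.13 at day 84, but neither passed (limma adjusted p = 0.158 and 0.101). Among cells with 2 to 4 times the median the changes were 1.28 and 1.82 (limma adjusted p = 0.147 and 0.107), resting on 5 to 35 OM-CD_a cells per pool. The share of CD cells passed at day 28 in the higher scaled range (1.45, limma adjusted p = 0.0140) and not in the lower one (0.72, limma adjusted p = 0.114), and at day 84 it passed in neither (0.64 and 1.10, limma adjusted p = 0.220 and 0.0998). The part that depth plays in assigning a cell to OM-CD_b or OM-CD_a was not tested.

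Set against each of the 24 other clusters, OM-CD_b passed the test at a rate near that of all cluster pairs. At both times it rose against the inner medullary duct clusters and OM-CD_a, among others. It fell at both times against the injured clusters, the immune cells and OSOM-TAL_b, an outer stripe cluster. At day 28 it rose against 9 clusters, fell against 8 and did not pass against 7, with 18 at an unadjusted p under 0.05. At day 84 it rose against 9, fell against 4 and did not pass against 11, with 17 unadjusted. That day 84 total of 13 became 4 without day 84 pool 1, 8 without day 84 pool 2 and 8 without control pool 3. These shares were near the 72.3% and 46.7% of all 300 pairs given above.

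Along the duct itself, the ratios of OM-CD_b to both inner medullary clusters rose. Both of those clusters had lower shares of all cells at day 28. Their log2 odds changed by -2.48 for IM-CD and -2.56 for deepIM-CD (limma adjusted p = 8.05e-04 and 0.00508). OM-CD_a and IC changed less, by -1.06 and -0.48 (limma adjusted p = 8.05e-04 and 0.179). At day 84 IM-CD and deepIM-CD changed by -1.03 and -1.44 (limma adjusted p = 0.122 and 0.136). There were 0.0990 to 0.523 OM-CD_b cells per IM-CD cell in the control pools, 1.14 to 3.33 in day 28 pools, and 1.42 and 0.563 in day 84 pools, so no R-UUO pool overlapped a control pool. The log2 change was 3.00 (SE 0.595, limma adjusted p = 0.00129) at day 28 and 2.05 (SE 0.729, adjusted p = 0.0418) at day 84. Against deepIM-CD the ratio went from 0.128 to 0.318 in the control pools to 0.549 to 6.13 in day 28 pools and 1.11 and 0.899 in day 84 pools. The changes were 3.07 (limma adjusted p = 0.00247) and 2.43 (adjusted p = 0.0366).

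InjuredCD, the injured collecting duct cluster, was almost absent from the controls, with 56 cells in the 4 pools. OM-CD_b outnumbered it by 20.4 to 44.5 times in control pools, by 0.683 to 1.30 times at day 28, and by 0.801 and 0.995 times at day 84. The log2 ratio fell by 4.80 at day 28 (SE 0.397, limma adjusted p = 5.54e-06) and by 4.93 at day 84 (SE 0.486, adjusted p = 4.92e-05). In UMIs OM-CD_b stood nearer to InjuredCD than to OM-CD_a, since an OM-CD_b cell had more UMIs than an InjuredCD cell in 53.2% to 76.0% of pairs in the R-UUO pools.

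The intercalated cells share the duct, and OM-CD_b cells per IC cell were fewer in every control pool than in any R-UUO pool, without passing the test. There were 0.658, 1.03, 0.612 and 0.793 OM-CD_b cells per IC cell in the control pools. There were 1.17, 1.06, 1.68 and 3.49 at day 28, and 2.30 and 1.19 in the later pools. Control pool 2 and day 28 pool 2 all but met, at 1.03 and 1.06. The log2 changes were 1.11 (SE 0.476, limma adjusted p = 0.0570) and 1.13 (SE 0.583, adjusted p = 0.130). Against Uro, the urothelial cluster, the values were -0.29 and -1.15 (limma adjusted p = 0.535 and 0.0878).

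The thick ascending limb, which reabsorbs salt without water, gave a reference from the outer medulla. Against ISOM-TAL, its segment in the inner stripe, the ratio of OM-CD_b was 0.421 to 0.853 in control pools, 0.562 to 2.32 in day 28 pools, and 3.40 and 1.12 in day 84 pools. The log2 changes were 0.85 (limma adjusted p = 0.198) and 1.83 (adjusted p = 0.0505). Against OSOM-TAL_a, the outer stripe cluster a, they were -0.13 (limma adjusted p = 0.761) and 1.23 (adjusted p = 0.0531). OSOM-TAL_b was the exception, since against it OM-CD_b fell by 2.73 at day 28 (limma adjusted p = 0.00173) and fell by 3.02 at day 84 (adjusted p = 0.00519). Against the 4 proximal tubule clusters OM-CD_b changed by -5.27 to -2.40 at day 28, where 3 of 4 passed, and by -2.73 to -1.24 at day 84, where none passed. The amount of outer medulla in a dissection cannot be read from one segment alone, and its part in these shares was not tested.

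**Figure D3:**
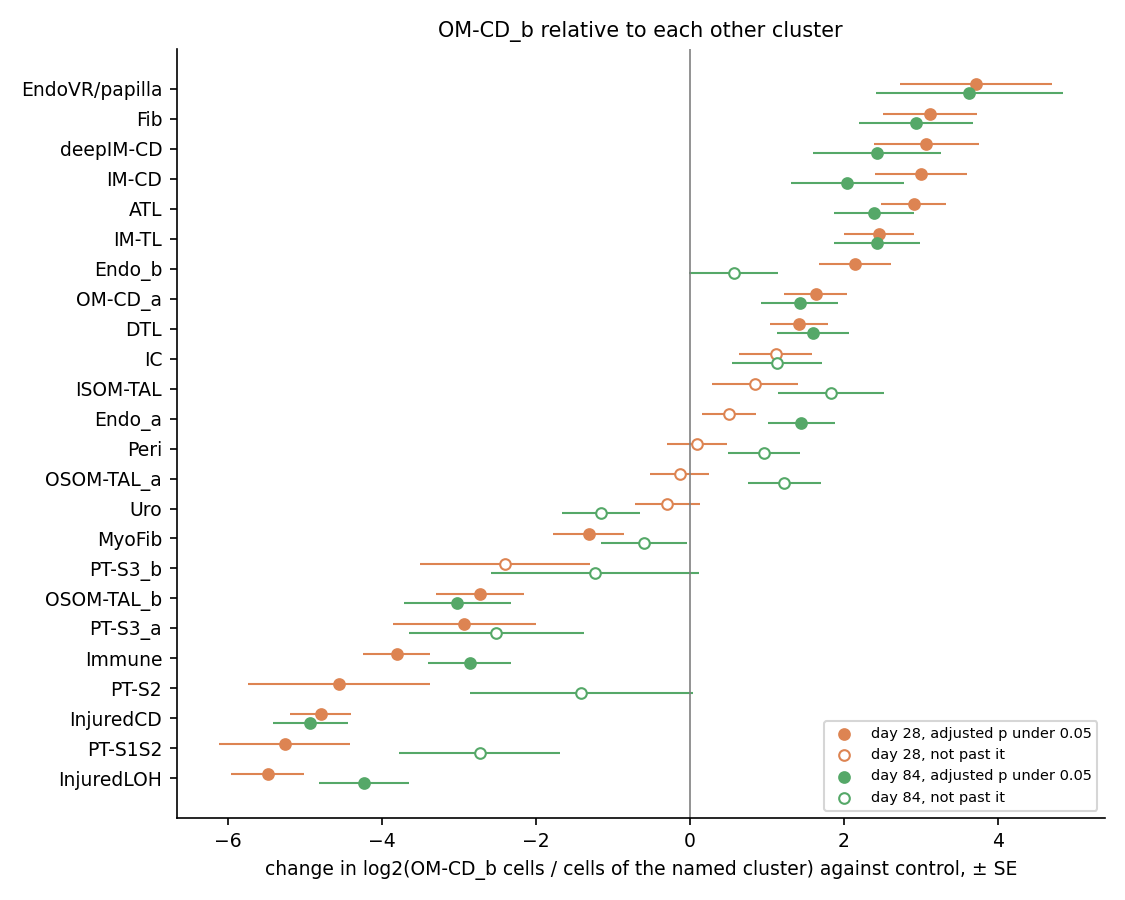
Change in the log2 ratio of OM-CD_b cells to the cells of each of 24 other clusters, against control, at day 28 (orange) and day 84 (green), ± SE from limma. Filled points passed an adjusted p of 0.05 over all 300 cluster pairs; values run from -5.49 to 3.72 at day 28, with the injured and most proximal tubule clusters at the lower end and the inner medullary clusters near the upper end.

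The comparison of day 84 with day 28 gave no call for OM-CD_b against any cluster when cells of all depths were used. Of the 24 ratios, 0 passed (limma), 3 had an unadjusted p under 0.05, and the lowest adjusted p was 0.143. In the fixed ranges of 1000 to 2000 and 2000 to 4000 UMIs, 16 and 15 of the 24 passed, while 0 did in either range scaled to the pool median. With a stricter filter on genes and mitochondrial percent, or without day 28 pool 4, 1 passed. Over all 300 pairs 0% passed and 64 had an unadjusted p under 0.05.

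OM-CD_b cells had more detected genes than the rest of the pool. The median was 1676.5, 2630, 1859 and 1969 genes per cell in the control pools, 2999, 2502, 2285 and 2759 at day 28, and 1654 and 1145.5 at day 84. To narrow the difference in UMIs, genes were compared among cells with 1000 to 2000 UMIs only. There, OM-CD_b held more genes than the other cells in all 4 control pools, with 1250, 1164, 1148 and 1160 genes, or 1.18, 1.13, 1.15 and 1.17 times the other cells' median. At day 28 it held 855.5, 862, 924 and 1130 genes, or 0.788, 0.802, 0.878 and 1.07 times that median. At day 84 the values were 1124 and 979.5 genes, or 1.11 and 1.03 times. All R-UUO pools were below all control pools, and in 3 of 4 day 28 pools OM-CD_b was below the other cells.

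The log2 change of this ratio was -0.40 at day 28 (SE 0.0806, limma adjusted p = 0.00356; exact p = 0.0286) and -0.12 at day 84 (SE 0.0987, limma adjusted p = 0.459). Day 84 was above day 28 by 0.28 (SE 0.0987, limma adjusted p = 0.0295; exact p = 0.267). OM-CD_a differed in direction at day 28, with a change of 0.16 (SE 0.0335, limma adjusted p = 0.00356). Of the 14 clusters tested 42.9% passed at day 28, 42.9% at day 84 and 57.1% between the R-UUO times. The day 28 pools had only 24, 25, 31 and 27 OM-CD_b cells in that range, against 60 to 114 in control pools and 245 and 406 at day 84, and those cells lay below the lower quartile of OM-CD_b UMIs in all 4 day 28 pools, which was 2946 to 4203. Among cells with 2000 to 4000 UMIs the day 28 change was -0.12 (limma adjusted p = 0.449), and among those with 4000 to 8000 it was -0.065 (adjusted p = 0.562). At 800 to 1600 UMIs it was -0.26 (limma adjusted p = 0.0979), and the difference between day 84 and day 28 was 0.31 there (adjusted p = 0.0559), so of the 4 ranges both calls held only at 1000 to 2000 UMIs.

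**Figure D4:**
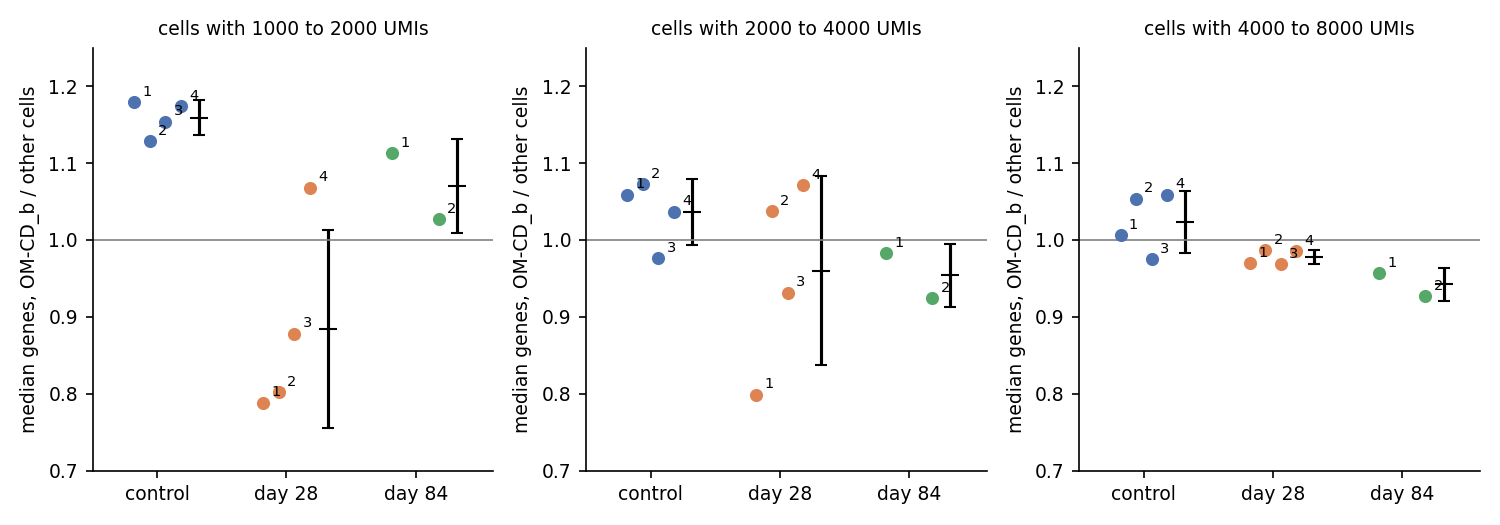
Median detected genes of OM-CD_b cells divided by that of the other cells of the same pool, within 3 ranges of UMIs per cell. Points are pools, bars are mean ± SD over 4, 4 and 2 pools, and the axis starts at 0.7; at 1000 to 2000 UMIs the control pools lie at 1.13 to 1.18 and the day 28 pools at 0.788 to 1.07, while in the higher ranges the groups lie closer together.

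The mitochondrial percent of OM-CD_b was the highest or the next highest of the 6 CD clusters in the 9 pools whose CD cells held mitochondrial UMIs. In every control pool it was the next highest, below deepIM-CD, whose means were 3.85% to 4.30%. The OM-CD_b mean over cells was 3.13%, 3.99%, 3.96% and 3.77% in the control pools. It was 0.374%, 0.0779%, 0.158% and 0.406% at day 28, and 0.137% and 0% at day 84. All control pools were above all R-UUO pools, averaging 3.71% ± 0.400 (SD, n = 4) against 0.254% ± 0.161 (n = 4) in day 28 pools. OM-CD_a had 0.860%, 1.61%, 0.889% and 0.861% in the control pools, 0.00506% to 0.177% at day 28, and 0.0288% and 0% at day 84. The cells outside OM-CD_b also had lower values after R-UUO, with 1.41% to 2.37% in control pools, 0.132% to 0.528% at day 28, and 0.137% and 0.110% at day 84. Since the level moved with the condition in all cells, and condition and droplet run cannot be told apart, it is given without a test.

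In the same range of 1000 to 2000 UMIs, OM-CD_b kept a higher mean mitochondrial percent than OM-CD_a in 9 of 10 pools, with 2.35% to 4.32% against 0.862% to 1.59% in the controls and 0.167% to 0.923% against 0.00335% to 0.379% at day 28. Cells with no mitochondrial UMI were 1 of 388 OM-CD_b cells in control pool 4, or 0.258%, and 0 in the other control pools, which allows a share of up to 1.02%, 0.396% and 1.29%. They were 13.4%, 36.4%, 36.0% and 21.2% of OM-CD_b cells at day 28, and 32.9% and 100% at day 84. OM-CD_a had more such cells at day 28, with 32.9%, 77.5%, 72.7% and 95.7%. In day 84 pool 2 none of the 862 OM-CD_b cells was listed with a mitochondrial UMI, and neither was any of the pool's 7062 CD cells, although 780 cells of other types were. The 0% and 100% of that pool are given as deposited, and whether they reflect the cells or their processing was not tested.

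**Figure D5:**
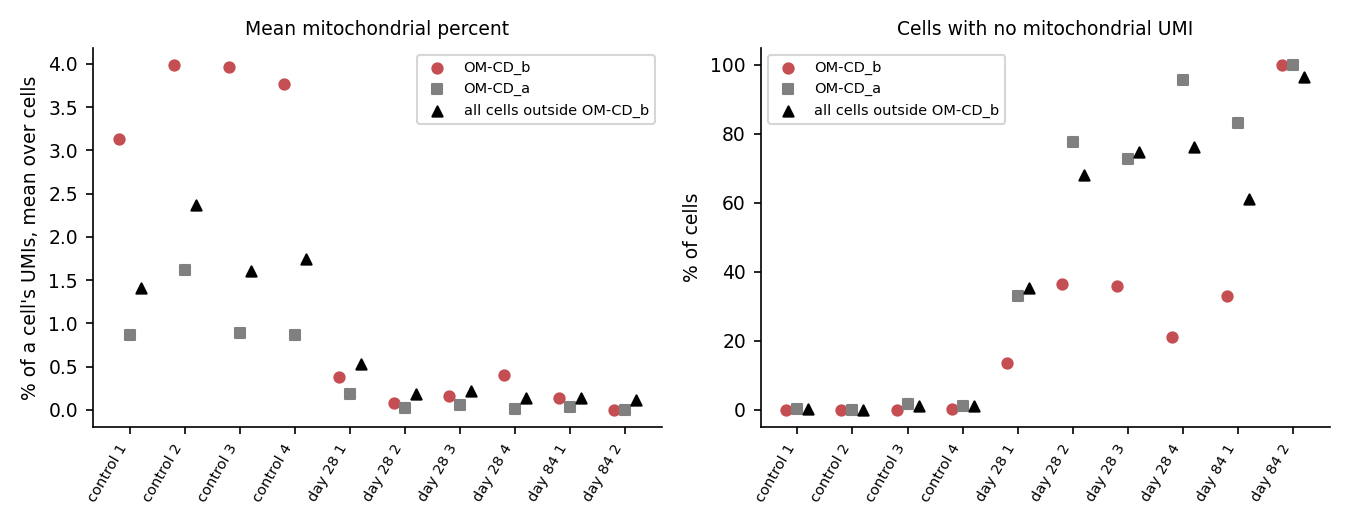
Mean mitochondrial percent of UMIs per cell (left) and percent of cells with no mitochondrial UMI (right) in each pool. Circles are OM-CD_b, squares OM-CD_a and triangles all cells outside OM-CD_b; control pools have OM-CD_b means of 3.13% to 3.99% and R-UUO pools at most 0.406%, and in day 84 pool 2 both collecting duct clusters reach 100% on the right.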

How the data were processed

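The authors counted UMIs of the probe assay with Cell Ranger 7.1 on mm10 (per the submitters' processing notes), kept cells with at least 300 genes and at most 10% mitochondrial reads, applied SoupX against ambient RNA, took out doublets (scDblFinder, mixed signatures) and clustered all cells together in Seurat. The deposited values per cell were a UMI count (an expected count, fractional in control pool 1), a count of detected genes, a mitochondrial percent, the pool and the cluster. No cell was filtered further and no doublet caller was run.

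Cells were counted per pool and cluster. Shares, as log2 odds with 0.5 cells added, log2 ratios of clusters, and log2 median UMIs or genes relative to the other cells of the pool were compared with limma 3.58.1 in R 4.3.3 (lmFit, eBayes, two-sided, 3 conditions in one fit), with Benjamini-Hochberg adjustment over all clusters or pairs and a threshold of 0.05. Two-sided exact permutation tests used scipy 1.17.1. Odds folds are 2 to the log2 change. The fit was tested on simulated data. Alternatives left out each pool, removed cells with under 500 genes or over 5% mitochondrial UMIs or the 5% with the most UMIs, and changed the scale, the cells added (1), the reference or the UMI range; the ranges of 2000 to 4000 and 4000 to 8000 UMIs, the ranges for shares and OM-CD_a as reference were chosen after seeing the data. The clusters named are the CD clusters, IC and the clusters of the outer medulla. The cluster and these lists were chosen with earlier results of these data known. The p-values measure the spread between pools of one library per condition and leave out that between runs.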

Additional observations from a re-analysis of the deposited data

Results flagged for a closer look

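In 32 sets of 4 pools tested for a pool far from the other 3, chance flags about 1.6, and 3 were found. The share of OM-CD_b among CD cells was 11.5% in control pool 2, against 4.36% to 5.49% in the other control pools. Median genes at 1000 to 2000 UMIs were 1250 in control pool 1, the pool with fractional UMI counts, against 1148 to 1164 in the others. Cells with no mitochondrial UMI were 0.258% of OM-CD_b in control pool 4 and 0% in the others, a difference of 1 cell. The gene count relative to other cells at 1000 to 2000 UMIs was 0.28 higher, on the log2 scale, in day 84 pools than in day 28 pools (limma adjusted p = 0.0295), while at 2000 to 4000 and at 4000 to 8000 UMIs the difference did not pass the test (adjusted p = 0.996 and 0.629).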

How the results depend on the processing

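All changes here are on the log2 scale. For the share of all cells at day 28 (0.66), the call was lost on an arcsine scale (0.034 in its own units, limma adjusted p = 0.0622), without the 5% of cells with the most UMIs (0.40) and in the exact permutation test (p = 0.0857); leaving out a pool gave 0.53 to 0.89. At day 84 leaving out a pool gave 0.92 to 1.35 for the share of all cells, 1.09 to 1.59 for the share of CD cells and 1.23 to 1.73 for the ratio to OM-CD_a. The CD call at day 84 was lost without control pool 3 (1.15) and without day 84 pool 1 (1.10). The ratio call at day 84 was also lost without the 5% of cells with the most UMIs (1.30, limma adjusted p = 0.0503). No day 84 result can pass the exact test, which leaves 1.12, 1.26 and 1.43 for these 3 results at p = 0.133.

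With 1000 to 2000 UMIs, the share of all cells changed by -0.70 at day 28, the share of CD cells by 0.36 and the ratio by 0.44; with 2000 to 4000 UMIs these were -1.20, -0.34 and -1.93. At day 84 with 2000 to 4000 UMIs the shares changed by 1.37 and 0.63, neither past the threshold. Day 84 against day 28 gave 3.44 and 2.56 for the share of all cells in the lower and upper range, 2.12 and 0.97 for the share of CD cells, and 3.74 and 6.12 for the ratio, and 16 and 15 ratios passed. With 1 to 2 and with 2 to 4 times the pool median, calls were lost for the share of all cells at day 28 (0.30 and 0.38), for the share of CD cells at day 28 in the lower range (0.72) and at day 84 in both (0.64 and 1.10). They were also lost for the ratio at day 28 (0.74 and 1.28) and day 84 (1.13 and 1.82), and for the share of all cells at day 84 with 2 to 4 times the median (1.20, limma adjusted p = 0.0851). The ratio between the R-UUO times turned to 0.39 and 0.54 without passing. The stricter filter on genes and mitochondrial percent turned the ratio between the R-UUO times to 0.17 and gave 1 ratio past the threshold. The cause of these shifts was not tested.

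Relative UMIs changed sign without passing: at day 28 to 0.29 with the mean of log2 UMIs, 0.057 against other CD cells and 0.029 with the stricter filter; at day 84 to -0.14 with that filter; between the R-UUO times to -0.16 and -0.17 with the mean and the filter. Leaving out a pool gave -0.15 to 0.10, -0.12 to 0.21 and -0.11 to 0.22. The call for relative genes at day 28 was lost at 800 to 1600 UMIs (-0.26), 2000 to 4000 (-0.12) and 4000 to 8000 (-0.065); at day 84 they were 0.049 at 800 to 1600. Between the R-UUO times the call was lost in all of those ranges (0.31, -0.00049 and -0.053) and in the exact test (0.28, exact p = 0.267), and 0.23 to 0.38 leaving out a pool, with the call lost without control pool 4, day 28 pool 2 or either day 84 pool. Leaving out a pool gave 4 to 16 ratios past the threshold at day 84, with 4 without day 84 pool 1, 8 without day 84 pool 2 and 8 without control pool 3, and 0 to 1 between the R-UUO times, with 1 without day 28 pool 4.

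No paired analysis was possible because the pool numbers name different mice in each condition. With 2 pools at day 84 the number of pools, and not the number of cells, limits the precision.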
